A study of Mus musculus with 8 samples.

Results

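The miRNAs of 2 gene clusters that are the hallmark of embryonic stem cells, miR-290 and miR-302, were looked up on TaqMan array card A in the lumbar ventral spinal cord. The 10 assays were chosen by name, namely mmu-miR-302a, mmu-miR-302b, mmu-miR-302c, mmu-miR-302d and mmu-miR-367 of the miR-302 cluster and mmu-miR-291a-3p, mmu-miR-292-3p, mmu-miR-293, mmu-miR-294 and mmu-miR-295 of the miR-290 cluster, and all 10 were among the 375 miRNA assays of the card. Total RNA came from 4 wild type mice of the FVB strain and 4 MLC/SOD1[G93A] mice on the FVB background, all 4 months old. The MLC/SOD1[G93A] mice overexpress mutant SOD1 under the Myosin Light Chain promoter, which is active in muscle, so the tissue measured is not the one in which the transgene is driven. Wild type samples are numbered 1 to 4 as in the labels. The data name the transgenic ones 5a to 8a, which the labels do not, so for these the group is known but not which labelled sample each is. The labels do not say that each sample is a separate mouse, so the p-values given here take samples, not mice, as the units.

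The readout of a TaqMan assay is the Ct, the PCR cycle where fluorescence passes a fixed level, and an earlier Ct stands for more template. A well that never passes it is listed as undetermined. Following the methods of the study, a Ct over 35 was taken as non-specific or undetected, and both the wells with any Ct and those with a Ct of 35 or less were counted. The comparison of wild type and MLC/SOD1[G93A] samples asks whether either group gave more signal in these assays, and the levels themselves show how much signal the card gives for miRNAs whose home is the early embryo.

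As background, the miR-290 and miR-302 clusters are each transcribed as a single precursor from which several hairpins are cut. Pluripotency factors switch them on, the miR-290 cluster in naive embryonic stem cells and the miR-302 cluster as cells move towards the epiblast, and both fall silent as cells differentiate. Most of their miRNAs carry the same short core near the 5′ end and help the rapid cell cycle of stem cells by repressing inhibitors of the G1 to S transition. Adult spinal cord is made of neurons, glia and vessel cells that do not normally use them.

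The mature sequences show how closely the members resemble one another. They were taken from RefSeq on the mouse assembly GRCm38.p6, which held 8 of the 10, and mmu-miR-302a and mmu-miR-292-3p are named only. Old names without an arm were read as the 3p arm. Capitals mark the seed, bases 2 to 8, with which a miRNA pairs with its targets. The last 2 sequences, miR-17 and miR-92a, belong to no embryonic cluster and are shown because they carry the same core or the same seed and were present in every sample.
mmu-miR-302b: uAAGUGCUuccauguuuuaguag
mmu-miR-302d: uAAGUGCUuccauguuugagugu
mmu-miR-291a-3p: aAAGUGCUuccacuuugugugc
mmu-miR-294: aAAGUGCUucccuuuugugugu
mmu-miR-295: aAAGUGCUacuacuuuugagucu
mmu-miR-302c: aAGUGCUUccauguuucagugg
mmu-miR-293: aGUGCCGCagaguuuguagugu
mmu-miR-367: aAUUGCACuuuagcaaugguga
mmu-miR-17: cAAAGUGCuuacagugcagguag
mmu-miR-92a: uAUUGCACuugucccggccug

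The seed AAGUGCU was shared by 5 of the 8 sequences, from both clusters. In mmu-miR-302c and mmu-miR-293, as RefSeq gives them, the core AGUGC starts at base 2 and base 1 in place of base 3. In miR-17 and its paralogs it starts at base 4. mmu-miR-367 sits in the miR-302 cluster but has the seed AUUGCAC, that of miR-25, miR-32, miR-92a and miR-363. Aligned without gaps, mmu-miR-302b and mmu-miR-302d had the same base at 20 of 23 positions and mmu-miR-291a-3p and mmu-miR-294 at 19 of 22. The reverse transcription primer of a TaqMan miRNA assay is a stem-loop that pairs with the 3′ end, away from the seed. The hairpins of the 5 miR-302 cluster members lie within 580 bases of chromosome 3 (127545228 to 127545807) and those of the 5 miR-290 cluster members within 1923 bases of chromosome 7 (3218919 to 3220841), with all the mature sequences listed for them on the plus strand.

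The stem cell miRNAs were nearly silent. Of their 80 wells, 10 had a Ct (12.5%) and 4 had a Ct of 35 or less (5%), while over all 375 miRNA assays 2063 of 3000 wells had a Ct (68.8%) and 1963 had one of 35 or less (65.4%). The miR-302 cluster gave 7 of the 10 Ct values and all 4 of those at 35 or less. The miR-290 cluster gave 3, all over 35. In a bulk sample fewer cells of a type and less RNA per cell cannot be told apart, so a late Ct says nothing of how many cells hold the miRNA.

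**Figure D1:**
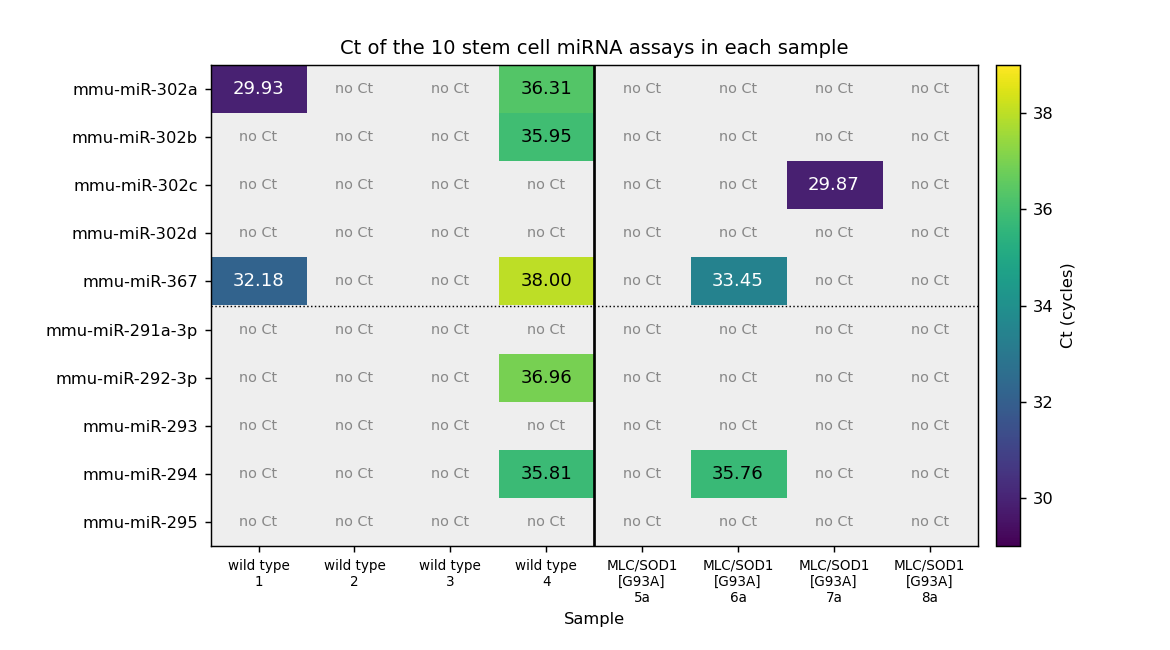
Ct in cycles of the 10 stem cell miRNA assays (rows; miR-302 cluster above the dotted line, miR-290 cluster below) in the 4 wild type and 4 MLC/SOD1[G93A] samples (columns, split by the solid line); colour gives the Ct and grey cells had none. Signal is scattered over single wells, with 5 of the 10 values in wild type 4, and no assay had a Ct in more than 3 samples.

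Among the 4 miR-302 paralogs, which share their origin and most of their sequence, mmu-miR-302a had a Ct of 29.93 in wild type 1 and 36.31 in wild type 4, and none in the other 6 samples. These 2 wells of the same group lie 6.38 cycles apart. mmu-miR-302c had a Ct of 29.87 in MLC/SOD1[G93A] sample 7a and in no other sample, and mmu-miR-302b one of 35.95 in wild type 4 only. mmu-miR-302d, which differs from mmu-miR-302b at 3 positions, gave no Ct in any of the 8 samples. The earliest signals of the family were therefore in 1 well each of 2 different paralogs in 2 different groups.

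mmu-miR-367, the member of the cluster with the other seed, had the most wells with a Ct, 3 of 8. The values were 32.18 in wild type 1, 38.00 in wild type 4 and 33.45 in MLC/SOD1[G93A] sample 6a, a range of 5.82 cycles. The 38.00 in wild type 4 was the highest Ct of that sample. Relative to U6, the small nuclear RNA used as the reference, log2 expression (the mean U6 Ct minus the Ct) was -14.73 in wild type 1 and -14.95 in sample 6a. A Ct of 35 corresponds to a log2 expression of -18.12 to -16.50, depending on the U6 Ct of the sample, and this is the lowest level the limit lets through.

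In the miR-290 cluster, mmu-miR-294, among the most abundant miRNAs of mouse embryonic stem cells, had a Ct of 35.81 in wild type 4 and 35.76 in MLC/SOD1[G93A] sample 6a. mmu-miR-292-3p had a Ct of 36.96 in wild type 4 alone. mmu-miR-291a-3p, mmu-miR-293 and mmu-miR-295 gave no Ct in any sample. The card holds 2 more assays of this cluster, of which mmu-miR-290-3p had a Ct of 35.95 in wild type 3 alone and mmu-miR-291b-5p had none. All the signals of the cluster therefore lay beyond the limit of 35, where the study's methods discard them. For an assay with a Ct in 0 of 8 samples, the exact Clopper-Pearson 95% interval of the share of samples with a Ct reaches 36.9%, so 8 cards leave room for occasional signal.

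By sample, wild type 4 had 5 members with a Ct, wild type 1 and MLC/SOD1[G93A] sample 6a had 2 each, sample 7a had 1, and wild type 2, wild type 3, sample 5a and sample 8a had none. At a Ct of 35 or less, wild type 1 had 2, samples 6a and 7a had 1 each, and the other 5 samples had none. Wild type 1 and wild type 4 thus held different kinds of signal, the first early and the second late. Of the 13 wells of wild type 4 with a Ct over 35, 5 were stem cell miRNAs (38.5%), compared with 1 of 87 such wells in the other 7 samples. This share was looked at after the values were seen and was not tested.

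**Figure D2:**
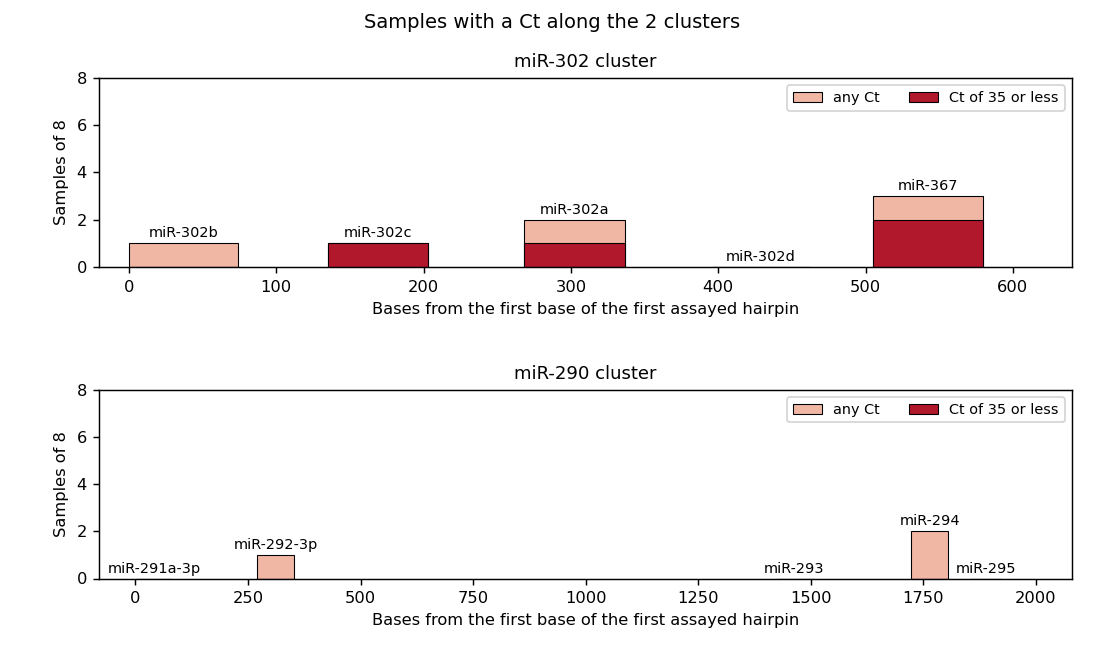
Number of samples of 8 with any Ct (light) and with a Ct of 35 or less (dark) for each member, drawn at the position of its hairpin in bases from the first assayed hairpin of its cluster. In the miR-302 cluster the counts run from 0 for miR-302d to 3 for miR-367, and in the miR-290 cluster from 0 to 2 with no Ct of 35 or less.

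Members of 1 cluster come from 1 precursor, so their signals can be set side by side within a sample. In wild type 1, mmu-miR-302a and mmu-miR-367 had a Ct of 35 or less, while mmu-miR-302b, mmu-miR-302c and mmu-miR-302d had none at all. In sample 7a mmu-miR-302c was the only one of the 5 with a Ct, although mmu-miR-302a and mmu-miR-302b lie on either side of it. In sample 6a mmu-miR-367 was the only one. Wild type 4 had a Ct for 3 of the 5, all over 35. No sample had a Ct of 35 or less in more than 2 members of either cluster.

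Of 40 wells in each group, 7 had a Ct in wild type and 3 in MLC/SOD1[G93A] samples. Of these, 2 in each group were at 35 or less. The wild type count rests on wild type 4, without which it was 2, and both early wild type wells are in wild type 1, without which none was left. Per assay, the presence of a Ct was compared with a two-sided Fisher's exact test over all 375 miRNA assays, with Benjamini-Hochberg adjustment. Of the 10 stem cell miRNAs 0 passed, and 0% of all assays did, with an adjusted p of 1 for each member and 0 assays at an unadjusted p under 0.05. The largest difference among the members was that of mmu-miR-302a, with a Ct in 2 of 4 wild type and 0 of 4 MLC/SOD1[G93A] samples (exact p = 0.429). With 4 samples against 4 the test cannot give a p below 0.0286, which takes a Ct in every sample of one group and in none of the other. Only the 8 assays with a Ct in 4 samples could reach that p, too few for any to pass after adjustment over 375. That 0 assays passed therefore decides nothing about a difference between the groups.

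For levels, the groups were compared with limma over the 227 miRNAs that reached a Ct of 35 or less in 3 or 4 wild type and in 3 or 4 MLC/SOD1[G93A] samples. None of the 10 stem cell miRNAs met this filter, so no fold change is given for them, and 0% of the 227 had an adjusted p under 0.05 (6 had an unadjusted p under 0.05 in limma). Without wild type 1, 4 of 217 had an adjusted p under 0.05 in limma, none of them a stem cell miRNA. When every missing well was set to a Ct of 40 so that all 10 could be entered, the log2 change from wild type to MLC/SOD1[G93A] was -3.54 for mmu-miR-302a (exact permutation test, two-sided, p = 0.171) and 2.43 for mmu-miR-302c (p = 0.229 in the same exact test). These values rest on the imputed Ct and on single wells, and those of the 4 members with no Ct, -0.10 each, are the difference in U6 alone. Neither test thus showed a difference between the groups in any stem cell miRNA. Fisher's test could not have done so after adjustment, and with so few wells neither shows that the groups are alike.

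Over the whole card, more miRNA assays gave a Ct in wild type than in MLC/SOD1[G93A] samples. Wild type samples had 258 to 269 (mean 263.25 ± 4.5, SD, n = 4) and the others 251 to 255 (252.5 ± 1.73, SD, n = 4), without overlap. The exact permutation p, two-sided, was 0.0286, which 70 assignments cannot undercut. It stayed 0.0286 without any 1 of the wild type samples and was 0.0571 without any 1 of the MLC/SOD1[G93A] samples. Without the stem cell miRNAs the numbers were 258 to 264 and 250 to 255. At a Ct of 35 or less, 239 to 256 and 240 to 249 assays were counted and the groups overlapped (exact permutation test, p = 0.257). The count of any Ct was looked at after the values were seen, and its part in the difference among the stem cell miRNAs was not tested.

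The 4 early wells were not weak compared with the rest of their cards. In wild type 1, 125 of the 263 miRNAs with a Ct were earlier than mmu-miR-302a, and 193 were earlier than mmu-miR-367. In sample 7a 128 of 251 were earlier than mmu-miR-302c, and in sample 6a 217 of 252 were earlier than mmu-miR-367. By its Ct, mmu-miR-302a in wild type 1 and mmu-miR-302c in sample 7a thus stood near the middle of all detected miRNAs, whereas the 6 late wells came after at least 95.5% of them. A Ct depends also on how well an assay amplifies, so these ranks order wells and not numbers of molecules.

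**Figure D3:**
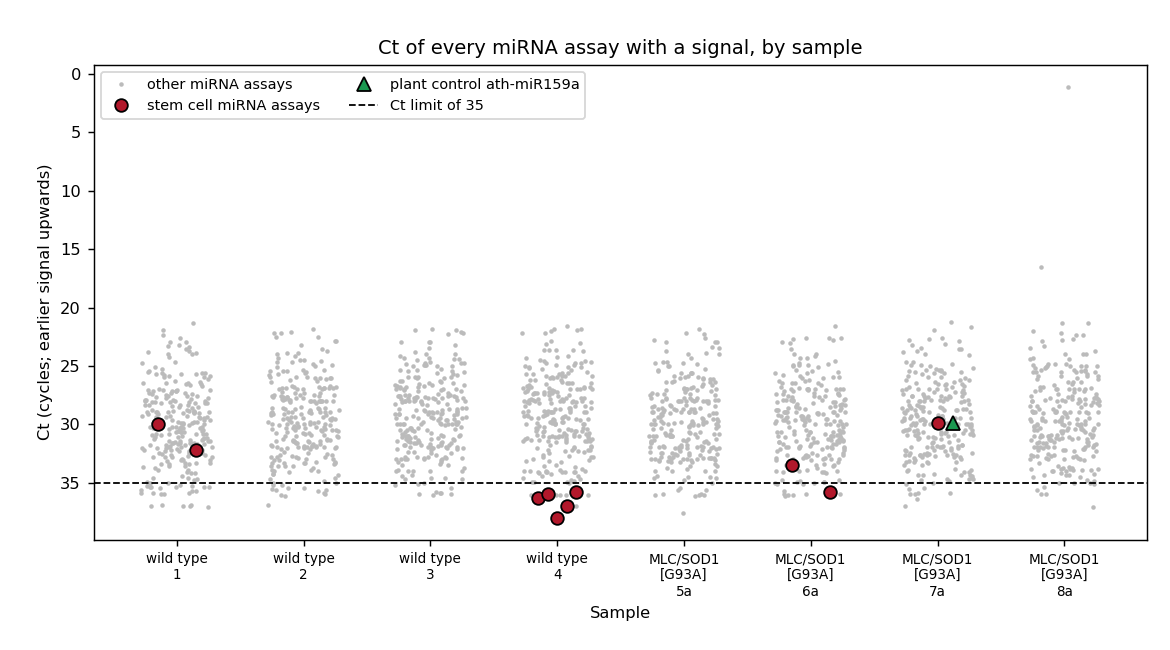
Ct in cycles (vertical axis, earlier signal upwards) of every miRNA assay with a signal in each sample, with the stem cell miRNAs in red, the plant control as a green triangle and the limit of 35 dashed. The 4 early stem cell wells lie inside the cloud of the other assays in wild type 1, 6a and 7a, and 5 late ones lie below the line in wild type 4.

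Most other wells with such a Ct belonged to assays with a Ct in all samples. Among all other miRNA assays, 735 wells had a Ct between 29.87 and 33.45, the range of the 4 early stem cell wells. Of these wells, 567 (77.1%) belonged to assays with a Ct in all 8 samples. A further 24 (3.27%) belonged to assays with a Ct in 1 to 3 samples, the class of the 6 stem cell miRNAs with any Ct. Over the card, 54.7% of assays had a Ct in all 8 samples and 13.3% in 1 to 3. An assay with a Ct in more samples also gives more wells, and the shares at other Ct values were not compared. The 2 wells of mmu-miR-302a lay 6.38 cycles apart. For assays with a Ct in every sample and a mean Ct from 30 to below 33, the median SD within a group was 0.721 cycles (60 assays). From 33 upwards it was 1.21 cycles (16 assays). A gap between 2 wells and an SD are different measures, and assays with missing wells were left out here, so the values are not directly comparable.

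The card also holds a negative control. ath-miR159a is a plant miRNA that mice do not have. It had a Ct of 29.85 in MLC/SOD1[G93A] sample 7a and none in the other 7 samples. mmu-miR-302c had its single Ct, 29.87, in the same sample. In wild type 1 and sample 6a, the other samples with early stem cell signal, the plant control gave none. What produced either signal was not tested.

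All 10 stem cell miRNAs were among the 115 assays with a Ct in 0 to 3 samples, which make up 30.7% of the card. Of the 65 assays with no Ct in any sample 4 were members, and of the 50 assays with a Ct in 1 to 3 samples 6 were. In those 50 assays 29 of 89 Ct values were over 35 (32.6%), compared with 100 of 2063 on the whole card (4.85%) and 6 of 10 for the stem cell miRNAs. The 60 values at 35 or less in these sparse assays, 4 of them of stem cell miRNAs, were spread over all samples, from 3 in sample 5a to 12 in sample 8a, so isolated early wells also occurred in other assays.

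**Figure D4:**
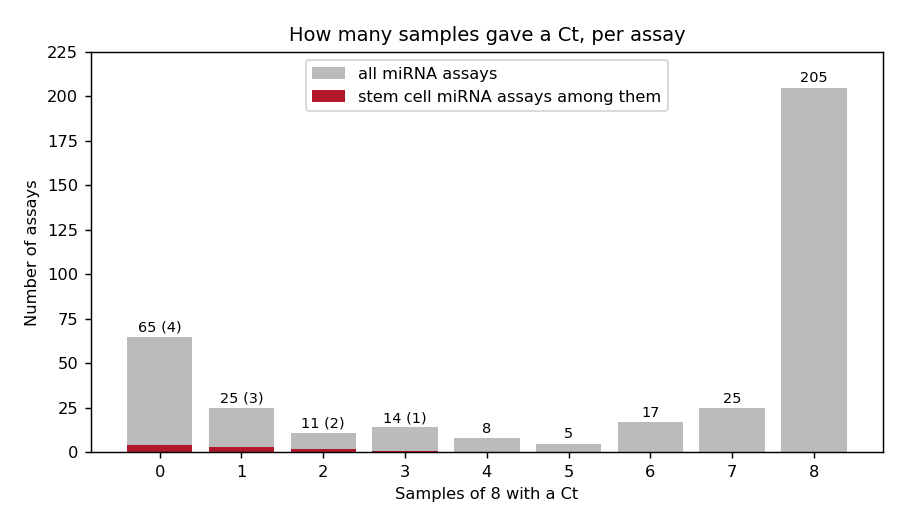
Number of miRNA assays (vertical axis) by the number of samples of 8 in which they had a Ct (horizontal axis), for all 375 assays in grey and the stem cell miRNAs in red, with their number in parentheses. The assays fall mostly at 8 samples (205) or at 0 (65), and the 10 stem cell miRNAs lie at 0 to 3.

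The miRNA assays whose pattern was most like that of each member were those with a Ct in just the same samples and the smallest mean difference in Ct. For mmu-miR-302b, 5 other miRNA assays had a Ct in wild type 4 alone, and the nearest were mmu-miR-465b-5p (0.05 cycles apart), mmu-miR-292-3p (1.01) and rno-miR-450a (1.02). For mmu-miR-292-3p they were rno-miR-450a (0.01 cycles apart), mmu-miR-465b-5p (0.96) and mmu-miR-302b (1.01). mmu-miR-302a shared its 2 samples with rno-miR-347 alone (4.95 cycles apart on average), and mmu-miR-302c its sample with mmu-miR-202-5p alone (6.03 cycles apart). The plant control, which is not among the miRNA assays searched, lay nearer to mmu-miR-302c, with its only Ct of 29.85 in the same sample. No other miRNA assay had the same samples as mmu-miR-367 or mmu-miR-294. With 1 to 3 samples behind each pattern, this likeness says only that the wells coincide.

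The tissue itself gave the signal its label calls for. The neuronal miRNAs miR-124, miR-9, miR-128a and miR-218, the oligodendrocyte miRNAs miR-219, miR-338-3p and miR-138, and miR-10a, miR-10b and miR-196b of the Hox clusters, which mark position along the body axis, had a Ct of 35 or less in all 8 samples. Their median Ct ran from 21.61 for miR-138 and 22.63 for miR-9 to 30.20 for miR-338-3p. The empty stem cell wells thus lay on cards where the miRNAs of the tissue gave signal.

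miRNAs of other organs were detected more often than the stem cell miRNAs. In 14 assays of liver, pancreas, heart and epithelium, 61 of 112 wells had a Ct (54.5%) and 55 one of 35 or less (49.1%). The defining miRNAs of liver, miR-122, and of heart, miR-208, had none in any sample, like mmu-miR-302d. The pancreatic miRNAs had a Ct in 26 of 32 wells, with miR-217 (median Ct 32.24) and miR-216b (32.99) in all 8 samples, and so did miR-203 of the epithelium list (29.64) and miR-200c (32.19). miR-205 (1 sample, 31.75) and miR-208b (1 sample, 35.98) had the isolated signal seen for the stem cell miRNAs. miR-200a (3 samples, 26.67 to 32.6) and miR-216a (3 samples, 33.21 to 35.01) also had a Ct in few samples. Some of these organ miRNAs are also made by cells of the nervous system, so the list is not one of absent miRNAs only.

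**Figure D5:**
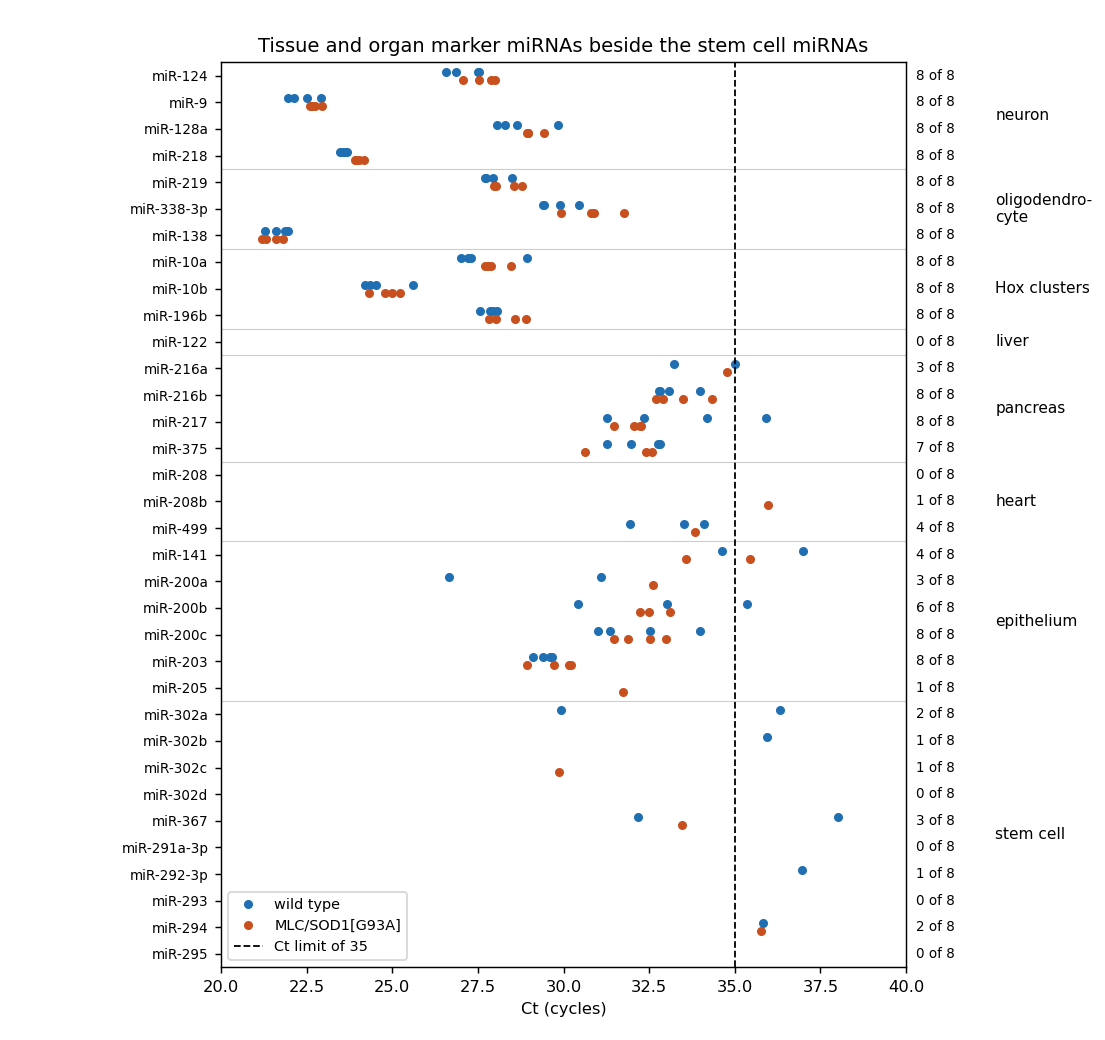
Ct in cycles (horizontal axis) of marker miRNAs by list, 1 row per assay, with blue points for wild type and orange points for MLC/SOD1[G93A] samples, the limit of 35 dashed and the number of samples with a Ct at the right. Neuron, oligodendrocyte and Hox cluster miRNAs have 8 of 8 samples, and the stem cell miRNAs at the bottom have 0 to 3.

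Seed relatives of the members outside the embryonic clusters were present. The 6 assays of miR-17, miR-20a, miR-20b, miR-93, miR-106a and miR-106b, growth-associated miRNAs that carry the core shifted by a base, had a Ct of 35 or less in 48 of 48 wells. The lowest median Ct was 26.95 for miR-17 and the next 27.24 for miR-106a, and the highest were 29.05 for miR-106b and 31.19 for miR-20b. Of the miRNAs with the seed of mmu-miR-367, miR-92a (median Ct 28.14), miR-25 (31.83) and miR-32 (33.08) had a Ct in all 8 samples. miR-363 had one in 2 samples, 34.01 in wild type 3 and 36.00 in MLC/SOD1[G93A] sample 6a. The core AGUGC and the seed AUUGCAC were thus present in the adult cord in miRNAs of other genes in both groups. Every well of the miR-17 relatives had a Ct, so their count could not differ. Those of mmu-miR-367 had any Ct in 13 of 16 wells in each group, and a Ct of 35 or less in 12 wild type and 11 MLC/SOD1[G93A] wells.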

How the data were processed

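Card A of the TaqMan mouse miRNA arrays, version 3.0, was run by the authors on 600 ng of total RNA per sample. The deposited Ct values are a score in cycles from the instrument software, without normalization and without the limit of 35. The deposited normalized table is on a log2 scale, the Ct minus the mean of the 4 U6 wells, and its 10 values for the stem cell miRNAs differ from that by at most 0.005. A further table holds the authors' fold changes and was not used. No genome build enters a card, and depth does not apply: the 8 cards limit the precision.

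Members were found by assay name. The members and lists were chosen with earlier results of these data known. Named beside the members are the plant control, other assays of the same cluster, marker and seed lists, and the assays with the most similar wells. Within the marker and seed lists, further miRNAs than the 2 with the lowest and 2 with the highest mean Ct were named after their values were seen. Detection was compared with Fisher's exact test over 375 miRNAs, and levels with limma 3.58.1 in R 4.3.3 over 227, both with Benjamini-Hochberg adjustment and a threshold of 0.05. Single values were compared with two-sided exact permutation tests over 70 assignments. The limma procedure was tested on simulated data with known changes, and Fisher's test on counts with a known p. Counts over the members carry no test. Alternatives were other references, the normalized table, a Ct limit of 32, no Ct limit, missing wells set to a Ct of 40, a looser filter, and leaving out each sample. For members, the exact permutation test of levels used missing wells set to a Ct of 40, as no member passed the filter. 0 columns belonged to no sample.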

Additional observations from a re-analysis of the deposited data

Results flagged for a closer look

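Dixon's test at the 95% level, which sets the gap between an extreme sample and its neighbour against the whole range, picked out a sample in 4 of 14 groups of 4 values, and by chance it does so in about 1 in 20. A count that is above 0 in a single sample meets this criterion whatever its size, and the counts share samples. Wild type 1 stood apart with 2 stem cell miRNAs at a Ct of 35 or less (0 in the other wild type samples). Wild type 4 had 5 with a Ct over 35 (0 in the others), and MLC/SOD1[G93A] sample 6a had 1 (0 in the others). Sample 8a had 249 miRNA assays at a Ct of 35 or less, against 240 to 241 in the other MLC/SOD1[G93A] samples, with none of the stem cell miRNAs among them.

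The plant control ath-miR159a, which no comparison used, had a Ct of 29.85 in MLC/SOD1[G93A] sample 7a and none in any other sample of either group. It shares this sample with the single Ct of mmu-miR-302c. The causes were not tested.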

How the results depend on the processing

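The 7 wild type wells of stem cell miRNAs with a Ct became 2 at a Ct limit of 35 and 1 at a limit of 32, and the 3 MLC/SOD1[G93A] wells became 2 and 1. Leaving out 1 sample at a time, the counts ran from 2 (without wild type 4) to 7 and from 1 (without sample 6a) to 3. At 35 or less they ran from 0 (without wild type 1) to 2 in wild type and from 1 to 2 in MLC/SOD1[G93A] samples. The number of members that limma could test was 0 in every setting but one, and 10 when missing wells were set to a Ct of 40, with 0 of the 10 at an unadjusted p under 0.05. Over all miRNAs limma called 0 at an adjusted p under 0.05 (6 at an unadjusted one), and 0 to 4 when single samples were left out, the 4 without wild type 1. The unadjusted count of 6 was 39 of 217, all lower in MLC/SOD1[G93A] samples, without wild type 1, and changing the reference gave 12 (snoRNA135), 14 (none), 21 (mean of the miRNAs at 35 or less in all samples) or 29 (snoRNA202). It was 2 to 5 without any other single sample, 4 at a Ct limit of 32 and 6 in the remaining settings. The median log2 change over the 227 miRNAs was -0.31 with U6 and ran from -0.36 with snoRNA202 to 0.18 with snoRNA135 as the reference. Without wild type 1 the median was -0.74 over the 217 miRNAs that then passed the filter. Without sample 7a it was 0.06 over 205, so these medians cover different sets of miRNAs. For detection, 0 assays passed Fisher's exact test in any setting, and at an unadjusted p under 0.05 there was 1 without wild type 4 and 0 otherwise. The difference of -10.75 assays per sample with any Ct was -5.25 at a limit of 35 and -12.25 at 32 (exact permutation p = 0.257 and 0.114). Leaving out a sample gave -12.5 to -8.83. The exact permutation p was 0.0286 without any 1 of the wild type samples. It was 0.0571 without any 1 of the MLC/SOD1[G93A] samples, with differences of -11.58 to -10.25. Leaving out a sample of either group leaves the same, smaller number of assignments. These settings of the card count, and leaving out samples at 35 or less, were added after seeing the data. The cause of these changes was not tested, beyond fewer wells or samples counted. In all, 58 values stayed near the main one, 10 moved and 6 lost the threshold. The 58 include the Fisher settings and the counts of members that limma could test. Those had little room to move, so the 58 do not measure stability. No paired analysis was made, since the labels number the replicates within each group and do not pair wild type with MLC/SOD1[G93A] samples.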
